A study of Mus musculus with 3 samples.

Results

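Nitric oxide and arginine metabolism was followed in bone marrow-derived macrophages (BMDMs) through 8 genes, which were chosen by name for their roles in these pathways: the arginine transporter Slc7a2, the inducible nitric oxide synthase Nos2, Gch1 for the cofactor tetrahydrobiopterin, Ass1 and Asl for the regeneration of arginine, the arginases Arg1 and Arg2, and Odc1 for polyamines. All 8 were among the 34821 gene names of the array, on 13 probes, and 5 of them had 1 probe only. The BMDMs came from C57BL/6J mice and had been grown from bone marrow in medium with M-CSF. They were stimulated for 20 h with CpG, a DNA ligand of TLR9, with IFN-γ together with a blocker of the IL-10 receptor (labelled IL-10RB, hence IFN-γ + IL-10RB), or with CpG, IFN-γ, and the blocker together (Triple). Each condition had 1 array, so that no difference below has a replicate check or a p-value, and no unstimulated array or array with IFN-γ alone was analysed here. IFN-γ and the blocker were always given together, so that their effects cannot be told apart.

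Activated mouse macrophages are known for making nitric oxide. Nos2 converts arginine to citrulline and nitric oxide and needs tetrahydrobiopterin as a cofactor, while Ass1 and Asl turn citrulline back into arginine. The arginases compete for the same substrate and cleave arginine to urea and ornithine, from which Odc1 makes putrescine, the first polyamine.

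The arrays were comparable in depth of signal. No spot was saturated, and the share of spots well above background, a mark the scanner software gives when a signal clears its local background, lay between 44.4% and 46.0%. A level is given below as the processed signal, a linear intensity after background subtraction, with the error estimated by the software for 1 spot. Differences are log2 folds after each array was scaled to its 75th percentile. Replicate spots within an array gave a technical SD of 0.13, 0.12, and 0.13 for the log2 fold of Triple over IFN-γ + IL-10RB, of CpG over IFN-γ + IL-10RB, and of Triple over CpG. This covers spot noise only and not differences between cultures. It was pooled over detected probes of all signal levels and can be too small for dim ones. The 2 Nos2 spots with CpG, for instance, read 133 and 180. The macrophage label was checked with 7 marker genes, among them Csf1r, Cd68, and Emr1. All 7 were well above background on every array, with summed signals between 522271 and 610772. Under these sums, single markers moved in both directions. Cd14 had log2 folds of 4.07 for Triple and 3.30 for CpG over IFN-γ + IL-10RB. Cd68 had −1.17 for Triple over IFN-γ + IL-10RB. CpG over IFN-γ + IL-10RB gave 1.33 for Itgam, −1.06 for Fcgr1, and −1.31 for Mertk. For Mertk, Triple over CpG gave 2.02. The other folds of these markers, among them all those of Csf1r and Emr1, stayed within 2-fold. Of the markers of other cells, 2 of 4 for T cells, 2 of 3 for B cells, and 2 of 3 for fibroblasts were well above background on every array, and 0 of 2 for NK cells on any. The detected ones of these lists were Cd3e, Lck, Cd79a, Cd79b, Col1a1, and Col1a2. Cd3e read 858, 869, and 806 for CpG, IFN-γ + IL-10RB, and Triple, and Cd79b read 801, 182, and 108. Cd3d, Cd3g, Ms4a1, Mpo, Ltf, Flt3, Ncr1, Klrb1c, and Pdgfra were not above background on any array. The summed B cell signal was 874 for CpG, 264 for IFN-γ + IL-10RB, and 158 for Triple, and the neutrophil sum was 3489, 9353, and 4348, with 3, 2, and 3 of 5 markers above background. The neutrophil markers did not move together. Ly6g read 555, 7699, and 2658, and Elane read 2839, 1615, and 1539, the larger part of the CpG sum. Camp read 72.9, 17.5, and 139 and was at least 5.32-fold higher in Triple than with IFN-γ + IL-10RB. The dendritic cell sum lay between 29943 and 36120, nearly all of it Siglech, which was within 2-fold in all comparisons. Of the other dendritic cell markers, Zbtb46 read 25.1, 36.3, and 133 and Xcr1 6.35, 6.80, and 60.7, so that 1, 2, and 3 of 4 markers were above background. Zbtb46 and Xcr1 had their highest signals in Triple. Their folds were 3.74 and at least 2.33 over IFN-γ + IL-10RB, and at least 5.50 and at least 2.66 over CpG. Among the members, Nos2, Slc7a2, Ass1, and Arg2 passed 2-fold against each of these arrays as well, and the others did not. The part of cells other than macrophages in the results was not tested. In such bulk RNA, fewer cells of a type and less RNA per cell cannot be told apart.

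In Triple over IFN-γ + IL-10RB, 5 members were more than 2-fold higher, namely Nos2, Slc7a2, Ass1, Arg2, and Gch1, out of the 7 that were well above background in at least 1 of these arrays. Over all genes tested, 6.57% were called higher in this comparison (1187 of 18055). No member was called lower, against 9.32% of all genes. In Triple over CpG, 4 of 7 members were higher (Nos2, Slc7a2, Ass1, and Arg2), against 7.48% of all genes, and 0 were lower, against 8.34%. In CpG over IFN-γ + IL-10RB, 1 of 6 members was higher (Gch1), against 5.06% of all genes, and 2 were lower (Nos2 and Slc7a2), against 5.85%. The median log2 fold of the members was 2.15, 2.12, and −0.028 for these comparisons in turn, and that of all genes was −0.047, −0.057, and 0.0039. Members and lists were chosen with earlier results of these arrays known, so that these counts describe the members and test nothing. The comparisons share arrays in pairs, and an error in 1 array enters 2 of them.

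**Figure D1:**
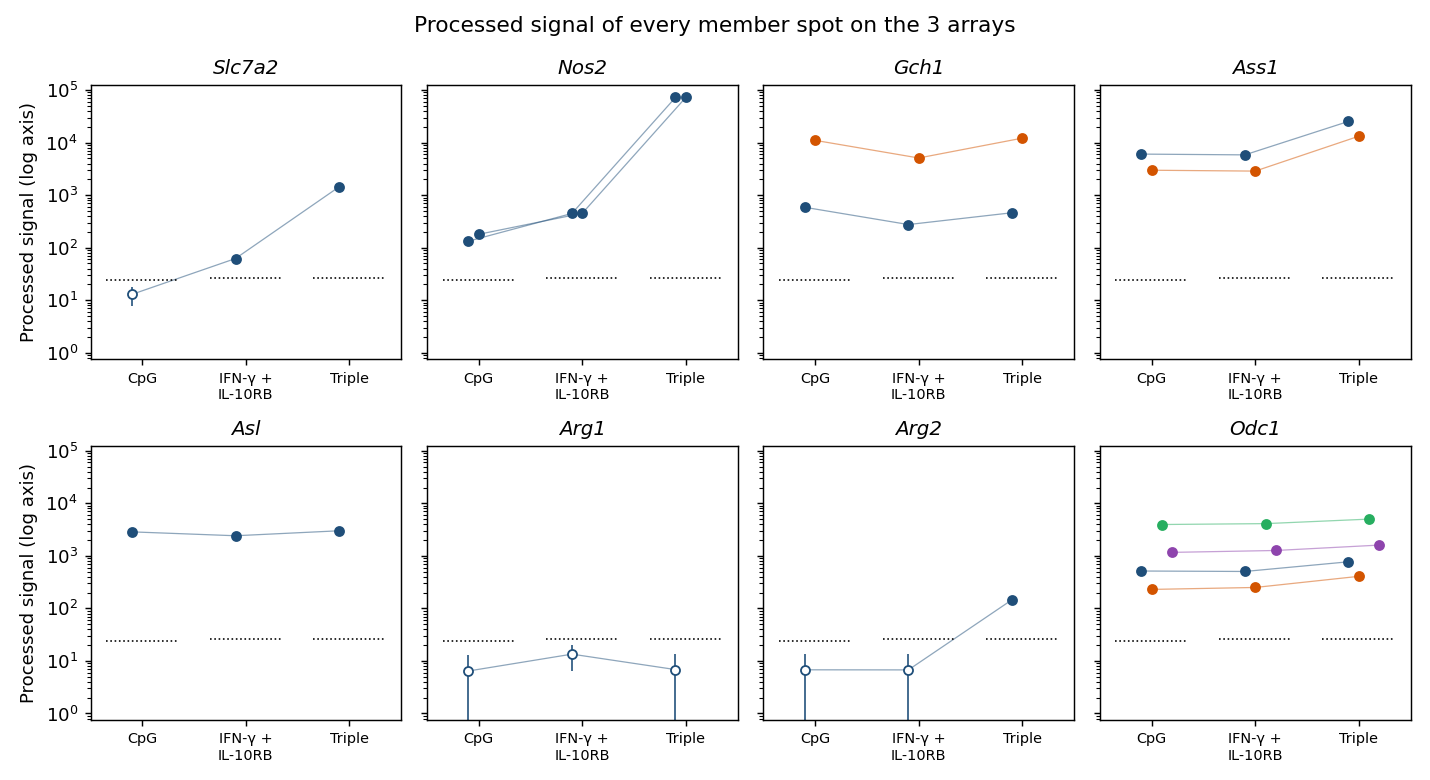
Processed signal (linear intensity, log axis) of every spot of the 8 members on the CpG, IFN-γ + IL-10RB, and Triple arrays. Colours mark different probes, bars are the software's error of 1 spot, filled points were well above background and unfilled points were not, and dotted lines are the lowest signal well above background on each array. Nos2 and Slc7a2 climb to Triple from low signals, both Ass1 probes are level on the first 2 arrays and higher in Triple, both Gch1 probes are lowest with IFN-γ + IL-10RB, and all 3 Arg1 points are unfilled. The outlier-marked Nos2 spot is included.

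Slc7a2, the cationic amino acid transporter CAT2, carries arginine into the cell. Its probe (NM_007514, mm9 chromosome 8 from 42002869 to 42002928) had a signal of 12.9 ± 5.31 with CpG, 62.1 ± 8.38 with IFN-γ + IL-10RB, and 1435 ± 144 in Triple. The CpG signal was not well above background, IFN-γ + IL-10RB was low but detected, and Triple stood far above both. Slc7a2 was 23.6-fold higher in Triple than with IFN-γ + IL-10RB (log2 fold 4.56) and ranked 31 of 16133 genes well above background on both arrays. Over CpG it was at least 62.8-fold higher in Triple, and CpG was at least 2.66-fold lower than IFN-γ + IL-10RB. The bounds hold for the background correction of the scanner software. With another one (normexp), the log2 folds were 3.57 for Triple over IFN-γ + IL-10RB, 4.25 for Triple over CpG, and −0.69 for CpG over IFN-γ + IL-10RB, which ended the last call.

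Nos2 makes nitric oxide from the arginine so imported. Its probe (NM_010927, chromosome 11 from 78773567 to 78773626) was spotted in 2 places. The spots read 133 ± 14.7 and 180 ± 18.9 with CpG, 448 ± 45.3 and 451 ± 45.6 with IFN-γ + IL-10RB, and 72377 ± 7238 and 72522 ± 7252 in Triple. The second spot with IFN-γ + IL-10RB carried an outlier mark and was left out, although it read almost the same. Nos2 was detected on every array, lowest with CpG. From the 165-fold difference of Triple over IFN-γ + IL-10RB and a 2.95-fold lower level with CpG than with IFN-γ + IL-10RB (log2 fold −1.56), the difference of Triple over CpG came to 487-fold (log2 fold 8.93, and 8.34 with normexp). Nos2 ranked 4 of 16133 genes in the first and 4 of 16271 in the last of these comparisons, and 16042 of 16424 in CpG over IFN-γ + IL-10RB, where rank 1 is the highest fold. The gene near the top of both comparisons of Triple was therefore near the bottom in the comparison without it.

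Gch1 is GTP cyclohydrolase 1, the first and rate-limiting enzyme of tetrahydrobiopterin synthesis. The brighter of its 2 probes (NM_008102, chromosome 14 from 47775348 to 47775407) had signals of 11031 with CpG, 5093 with IFN-γ + IL-10RB, and 12154 in Triple. Unlike Slc7a2 and Nos2, it was high on both arrays with CpG. It was 2.13-fold higher with CpG and 2.44-fold higher in Triple than with IFN-γ + IL-10RB, and Triple over CpG was 0.20 on the log2 scale, within 2 technical SD. The dimmer probe (from 47773797 to 47773856) had signals of 587, 275, and 462 in the same order. It gave 2.09-fold for CpG and 1.71-fold for Triple over IFN-γ + IL-10RB, and Triple was 1.22-fold lower than CpG. The probes therefore gave like values for CpG, and they disagreed on whether Triple passed 2-fold and on the direction of Triple over CpG.

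Ass1 joins citrulline and aspartate to argininosuccinate, the limiting step of arginine regeneration. Its brighter probe (NM_007494, chromosome 2 from 31376068 to 31376127) had signals of 6040 with CpG, 5840 with IFN-γ + IL-10RB, and 25284 in Triple. The other probe (from 31375998 to 31376057) had 2978, 2867, and 13211. The CpG and IFN-γ + IL-10RB arrays were level on both probes, and Triple alone was high. Triple was 4.42-fold and 4.71-fold higher than IFN-γ + IL-10RB by these probes and 4.35-fold and 4.61-fold higher than CpG, while CpG over IFN-γ + IL-10RB was 0.024 and 0.030 on the log2 scale, within the technical SD. The annotation of the brighter probe also lists a transcript of Gm5424, so that its signal is not certain to come from Ass1 alone, and the second probe carries no such entry. By Triple over IFN-γ + IL-10RB, Ass1 ranked 248 of 16133 genes.

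Asl splits argininosuccinate into arginine and fumarate and so completes the cycle. Its probe (NM_133768), which spans 586 bases on chromosome 5 from 130487964 to 130488549, had signals of 2865, 2417, and 3005 for CpG, IFN-γ + IL-10RB, and Triple. These were close together, with log2 folds of 0.35 for Triple and 0.22 for CpG over IFN-γ + IL-10RB and of 0.12 for Triple over CpG. The first was beyond 2 technical SD in the setting used here but not under spike-in scaling (0.22), and all were within 2-fold. Thus of the 2 enzymes that regenerate arginine, Ass1 passed the threshold in Triple and Asl did not.

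**Figure D2:**
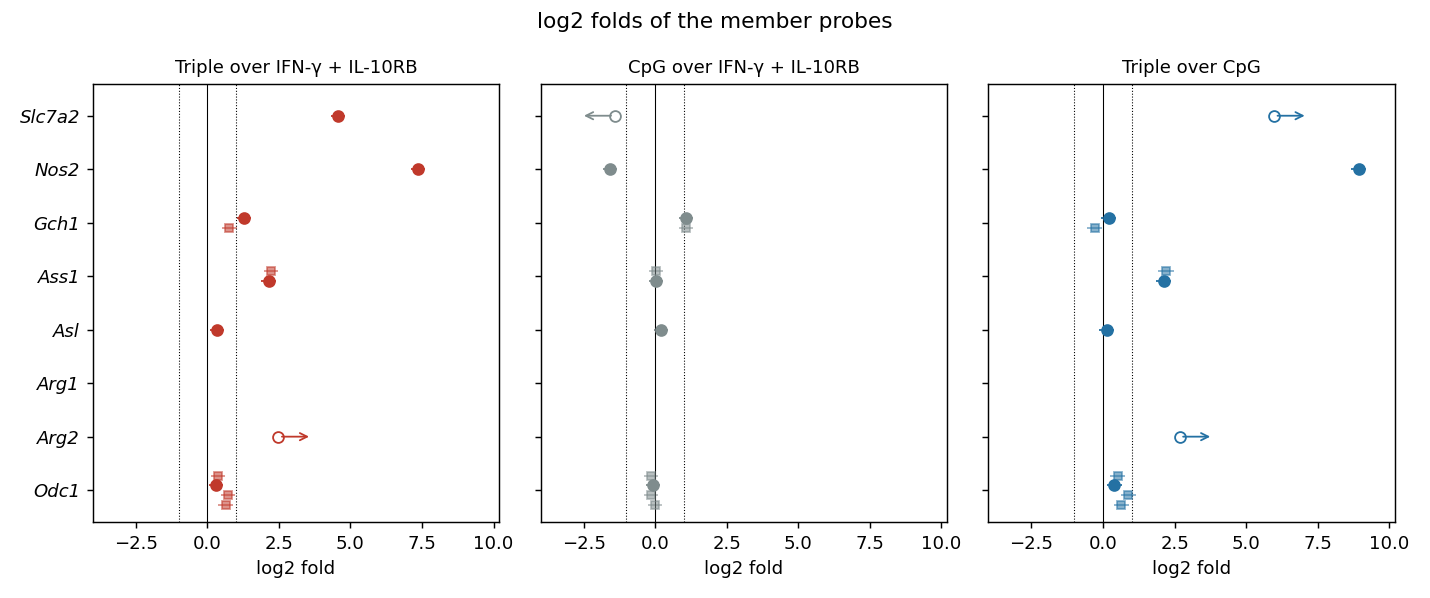
Log2 fold (horizontal) of each member probe in the 3 comparisons, with dotted lines at 2-fold. Circles are the probes that stand for their gene, squares are other probes, bars are 2 technical SD, and unfilled circles with arrows are bounds against an array that was not well above background. Nos2 and Slc7a2 lie far to the right in both comparisons of Triple and to the left in the comparison of CpG with IFN-γ + IL-10RB, Ass1 lies near 2 in both comparisons of Triple, and Arg1 has no value.

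Arg1 and Arg2 are the cytosolic and the mitochondrial arginase, and their probes are shown because the 2 genes differed in what could be read. The Arg1 probe (NM_007482, chromosome 10 from 24636194 to 24636253) and the Arg2 probe (NM_009705, chromosome 12 from 80252972 to 80253031) have these 60 bases in the array design:
Arg1 probe: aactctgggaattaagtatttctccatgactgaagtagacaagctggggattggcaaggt
Arg2 probe: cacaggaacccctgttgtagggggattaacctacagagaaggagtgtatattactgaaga
Position by position 17 bases were identical, the longest stretch shared exactly was 7 bases, and the best offset without gaps matched 21 of 54 bases. Neither probe was compared with the transcript of the other gene, so that cross-hybridization between them was not tested. The Arg1 signal was 6.44 ± 6.46 with CpG, 13.5 ± 6.95 with IFN-γ + IL-10RB, and 6.85 ± 6.87 in Triple. None of these was well above background, so Arg1 has no fold here, and a change of Arg1 below this limit was not detectable by this probe. The difference between the log2 folds of Nos2 and Arg1 could not be given for the same reason. Arg2 read 6.78 ± 6.49 with CpG, 6.76 ± 6.79 with IFN-γ + IL-10RB, and 146 ± 16.1 in Triple. It was above background in Triple alone, at least 5.59-fold higher than with IFN-γ + IL-10RB and at least 6.38-fold higher than with CpG. These bounds rest on the lowest signals called well above background on the dim arrays, 26.7 for IFN-γ + IL-10RB and 23.8 for CpG. Without this lower limit the log2 fold over IFN-γ + IL-10RB was 4.46, and with normexp it was 1.16.

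Odc1, ornithine decarboxylase, is the rate-limiting enzyme of polyamine synthesis and had 4 probes. The brightest (NM_013614, chromosome 12 from 17557831 to 17557890) had signals of 3955, 4111, and 5012 for CpG, IFN-γ + IL-10RB, and Triple. The log2 folds of Triple over IFN-γ + IL-10RB were 0.32 for this probe and 0.37, 0.64, and 0.73 for the others, and those of Triple over CpG were 0.40, 0.52, 0.64, and 0.88. Those of CpG over IFN-γ + IL-10RB lay between −0.15 and 0.0035. All 4 probes were thus highest in Triple, and all stayed within 2-fold. In the setting used here each was beyond 2 technical SD over both other arrays. Over IFN-γ + IL-10RB, the brightest probe fell within 2 technical SD (0.25) under spike-in scaling (0.19) and relative to Actb (0.23). All 4 probes share the scaling of the arrays. The probe that gave 0.37 and 0.52 is annotated to a transcript on chromosome 17 (BC083122, from 93858619 to 93858678), away from the other probes, and is named Odc1 by the array design.

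Promoters in the RefSeq table for GRCm38.p6 were found for Ass1, Gch1, and Odc1 of the 8 members. Those of Ass1, which passed 2-fold in Triple over both arrays, and of Gch1, added after its values were seen because it was high on both arrays with CpG, are shown from 250 bases before to 50 bases after the annotated start. Capitals mark matches to a general form of the NF-κB site, GGG and CC with any 5 bases between them, on either strand.
Ass1 promoter, GRCm38.p6, chr2:31470020-31470319, plus strand: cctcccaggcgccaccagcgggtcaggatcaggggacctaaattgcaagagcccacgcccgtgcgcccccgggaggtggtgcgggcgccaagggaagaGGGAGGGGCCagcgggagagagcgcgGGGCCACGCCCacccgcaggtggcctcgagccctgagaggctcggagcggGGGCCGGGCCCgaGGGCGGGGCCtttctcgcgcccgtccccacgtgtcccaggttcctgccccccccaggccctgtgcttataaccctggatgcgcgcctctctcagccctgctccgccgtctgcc
Gch1 promoter, GRCm38.p6, chr14:47189364-47189663, minus strand: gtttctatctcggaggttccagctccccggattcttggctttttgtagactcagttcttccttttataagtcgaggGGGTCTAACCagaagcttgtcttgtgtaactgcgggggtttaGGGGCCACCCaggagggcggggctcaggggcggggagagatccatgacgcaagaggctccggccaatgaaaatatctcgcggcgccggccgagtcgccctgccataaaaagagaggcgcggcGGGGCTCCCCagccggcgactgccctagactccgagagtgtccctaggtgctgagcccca
The Ass1 promoter held 6 matches, counting both strands and overlaps, between positions −152 and −63 from the start, and the Gch1 promoter held 5, of which those at −132 and −10 matched on both strands. Such matches are common, since 50.8% of 32851 promoters of this length held at least 1, and Odc1, which stayed within 2-fold, held 1 as well. The share of promoters with as many matches as Ass1 or Gch1 was not calculated. Neither the gamma-activated site TTCNNNGAA, present in 8.3% of promoters, nor the interferon-response core, GAAA and GAAA with any 2 bases between them, present in 3.44%, was found in any of the 3 promoters. A match is a description of letters, and its absence says only that the letters are not in this window.

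The other genes of these pathways were read from 5 lists of transporters, nitric oxide synthases and their partners, tetrahydrobiopterin enzymes, urea cycle and proline enzymes, and polyamine enzymes. Of 59 names, 56 were measured. In Triple over IFN-γ + IL-10RB, 1 of 43 tested was called higher (2.33%) and 8 lower (18.6%), beside 6.57% and 9.32% of all genes, with a median log2 fold of −0.079 against −0.047 over all genes. In Triple over CpG, 0 of 44 were higher and 7 lower (15.9%), beside 7.48% and 8.34% of all genes, with a median of −0.24 against −0.057. In CpG over IFN-γ + IL-10RB, 3 of 44 were higher (6.82%) and 2 lower (4.55%), near the 5.06% and 5.85% of all genes, with a median of 0.14 against 0.0039. The calls in Triple were thus mostly in the direction opposite to those of the members. The lists are descriptions and were not tested.

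**Figure D3:**
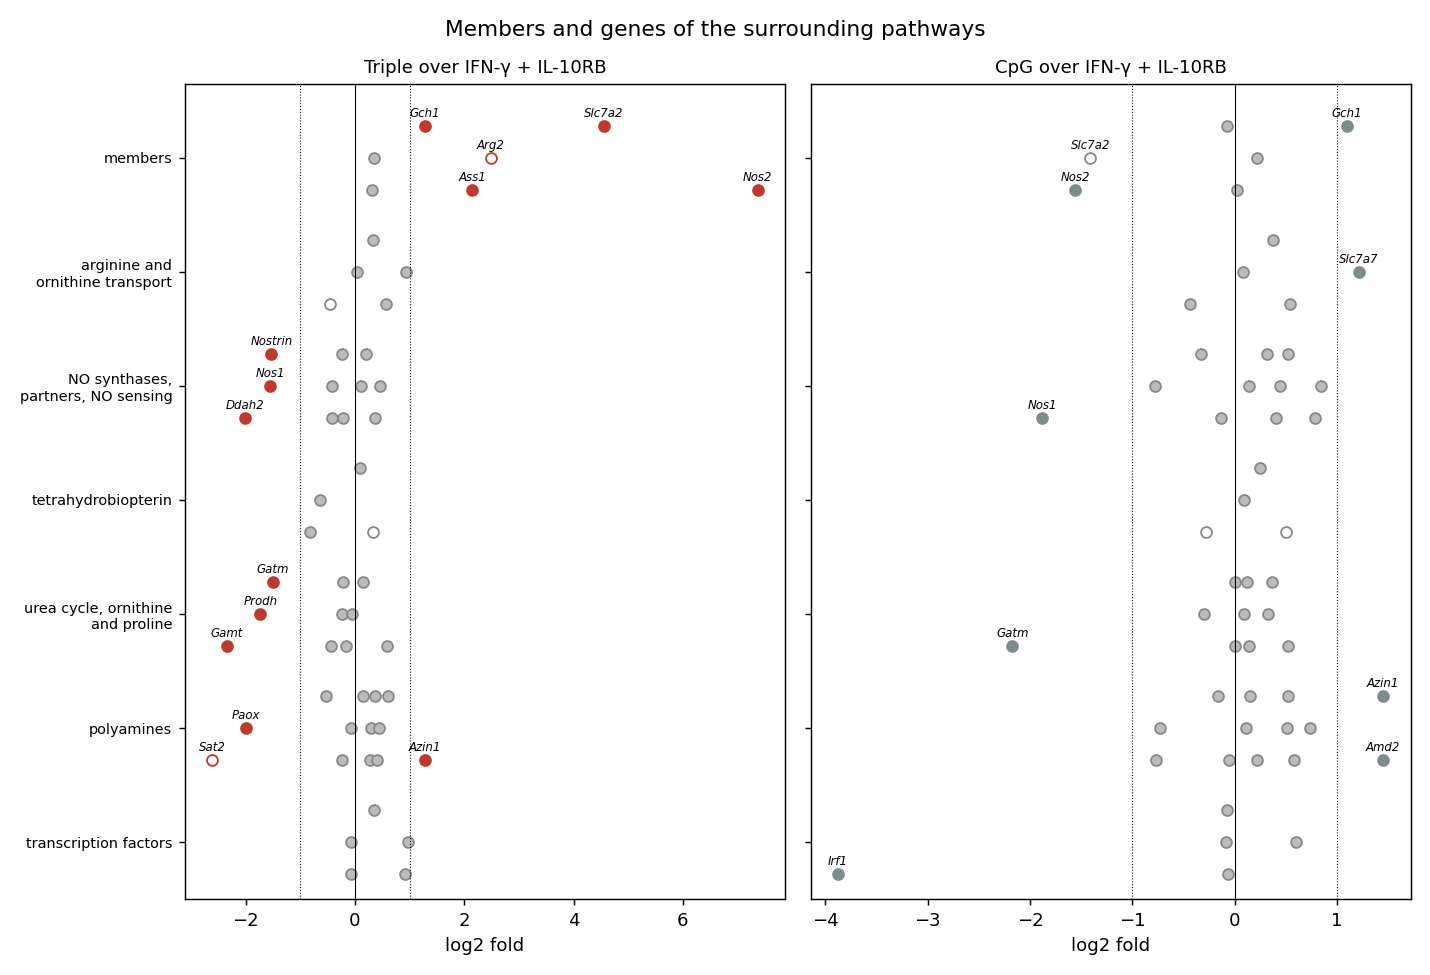
Log2 fold (horizontal) of the members, the 5 pathway lists, and a list of transcription factors in Triple over IFN-γ + IL-10RB (left) and in CpG over IFN-γ + IL-10RB (right), with dotted lines at 2-fold. Each point is a gene, coloured or named points were called, unfilled points are bounds, and the vertical offset within a list only separates points. In Triple 5 members lie to the right of 2-fold and 8 pathway genes to the left, with Azin1 the 1 pathway gene to the right. The 2 panels share the IFN-γ + IL-10RB array.

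Among the transporters 0 of 5 were called in either comparison of Triple, and 1, Slc7a7, was called higher in CpG over IFN-γ + IL-10RB. Slc7a7, a subunit of the y+LAT1 exchanger for cationic amino acids, had signals of 15481 with CpG, 6576 with IFN-γ + IL-10RB, and 12354 in Triple and so was lowest where CpG was absent, with a log2 fold of 1.21 for CpG and 0.94 for Triple over IFN-γ + IL-10RB. Slc7a1 (CAT1), the constitutive arginine transporter, had log2 folds of 0.57 for Triple and 0.37 for CpG over IFN-γ + IL-10RB, well under those of Slc7a2 in Triple.

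Of the 11 tested genes of the nitric oxide synthase list, 3 were called lower in Triple than with IFN-γ + IL-10RB and 2 lower than with CpG, where 9.32% and 8.34% of all genes were. Ddah2, which degrades methylated arginines that inhibit nitric oxide synthases, had signals of 648 with CpG, 355 with IFN-γ + IL-10RB, and 86.5 in Triple, and its log2 folds in Triple were −2.85 over CpG and −2.01 over IFN-γ + IL-10RB. Nostrin, a trafficking partner of the endothelial synthase, had 777, 694, and 235, with log2 folds of −1.67 and −1.53. Nos1, the neuronal synthase, was highest with IFN-γ + IL-10RB, with 38.8, 140, and 46.8, and was lower both with CpG (−1.88) and in Triple (−1.55). Its signals with CpG and in Triple were near the lowest called well above background on those arrays, 23.8 and 26.3, so that these folds are less certain. Nos3, the endothelial synthase, stayed within 2-fold, with log2 folds of 0.11 for Triple and 0.31 for CpG over IFN-γ + IL-10RB. Of these 11 genes, 0 were called higher in any comparison.

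Of the 4 tested tetrahydrobiopterin genes, 0 were called in any comparison. Spr, which makes the last step of synthesis, had log2 folds in Triple of −0.88 over CpG and −0.63 over IFN-γ + IL-10RB, and Qdpr, which recycles the cofactor, had −0.92 and −0.83, so that both were lower in Triple without passing 2-fold. Gchfr, the feedback regulator of GTP cyclohydrolase, was dim, with 0.096 over IFN-γ + IL-10RB, and Pcbd1, another recycling enzyme, was dim as well, with a bound of 0.34 over IFN-γ + IL-10RB and −0.16 over CpG.

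Among urea cycle, ornithine, and proline genes, 3 of 10 were called lower in Triple than with IFN-γ + IL-10RB, 2 of 11 lower than with CpG, and 1 of 11 lower in CpG over IFN-γ + IL-10RB, and 0 were higher. The shares called lower over all genes were 9.32%, 8.34%, and 5.85% in these comparisons. Gatm takes arginine to make guanidinoacetate, the precursor of creatine, and had signals of 1106 with CpG, 4898 with IFN-γ + IL-10RB, and 1696 in Triple, so that it was low on both arrays with CpG (log2 folds of −2.17 for CpG and −1.50 for Triple over IFN-γ + IL-10RB). Gamt, which makes creatine from guanidinoacetate, had 4685, 4172, and 801 and was low in Triple alone (−2.49 over CpG and −2.35 over IFN-γ + IL-10RB). Prodh, the proline dehydrogenase, had 341, 234, and 68.8 and was also low in Triple alone (−2.25 and −1.73).

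Of the 13 tested polyamine genes, 1 was higher and 2 were lower in Triple than with IFN-γ + IL-10RB, 0 higher and 3 lower than with CpG, and 2 higher in CpG over IFN-γ + IL-10RB. Over all genes the shares higher and lower were 6.57% and 9.32%, 7.48% and 8.34%, and, higher in the last comparison, 5.06%. Azin1, the antizyme inhibitor that protects ornithine decarboxylase from degradation, had signals of 17858 with CpG, 6453 with IFN-γ + IL-10RB, and 15344 in Triple and was high on both arrays with CpG (log2 folds of 1.44 for CpG and 1.28 for Triple over IFN-γ + IL-10RB). Amd2, an S-adenosylmethionine decarboxylase gene, had 25519, 9188, and 12267 and was highest with CpG (1.45 for CpG over IFN-γ + IL-10RB), and in Triple over CpG it was lower by just over 2-fold. Amd2 belongs to a family of near-identical genes, and cross-hybridization was not tested. Paox, which oxidizes acetylated polyamines, had 6081, 10212, and 2502 and was lowest in Triple (−2.00 over IFN-γ + IL-10RB and −1.23 over CpG). Sat2, an acetyltransferase of the family of the polyamine acetylase Sat1, had 117, 191, and 30.6, where the Triple signal was not well above background, which bounds its log2 folds at −2.61 over IFN-γ + IL-10RB and −1.88 over CpG.

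The genes with the patterns most like those of the members were found by the distance between pairs of log2 folds (Triple over CpG and Triple over IFN-γ + IL-10RB) among 11500 named genes well above background on all 3 arrays. With 3 arrays such a pattern is 2 numbers, and likeness is a description only. For Nos2 the closest were Ptgs2 (distance 1.93), Procr (3.82), and Upp1 (4.13), and 0 genes lay within 0.3. For Ass1 they were Bend6 (0.060), Adck3 (0.12), and Capn11 (0.14), and 12 genes lay within 0.3. For Gch1 they were Slc11a2 (0.031), Kif3c (0.036), and Cyfip1 (0.043), with 55 genes within 0.3. Asl was closest to Eif4ebp1, Dhx33, and Grpel1, with 1893 genes within 0.3, and Odc1 to Scand1, Cog1, and C030034I22Rik, with 1277. Among these 11500 genes, Nos2 and Ass1 thus had few genes near them, and Asl and Odc1 had many. The number within 0.3 was smaller for members with larger folds, so that it partly restates the size of the folds. Genes dim on any array, such as Slc7a2 and Arg2, were left out of the search.

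**Figure D4:**
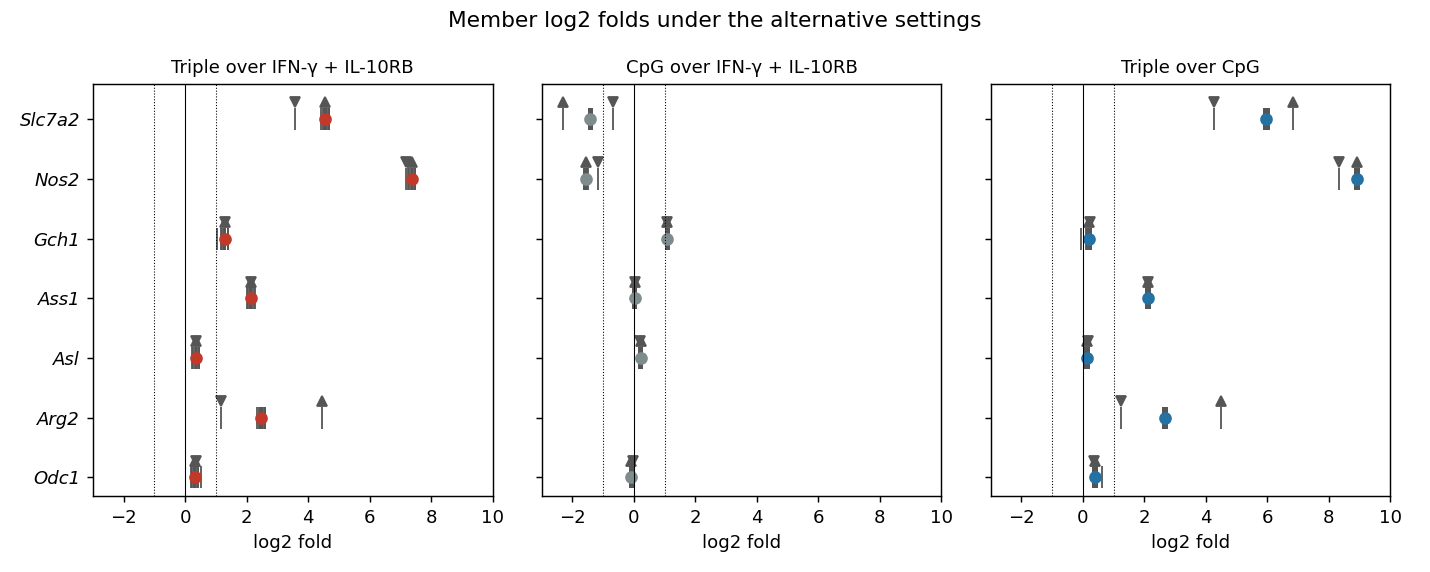
Log2 fold (horizontal) of the members with a value in the 3 comparisons under the setting used here (coloured circles) and under 13 alternative settings (vertical ticks, with down-pointing triangles for normexp and up-pointing triangles for no filter and no lower limit), with dotted lines at 2-fold. The dim members Arg2 and Slc7a2 spread most, from 1.16 to 4.46 for Arg2 in Triple over IFN-γ + IL-10RB, whereas Ass1 stayed between 2.02 and 2.26.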

How the data were processed

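RNA of 3 BMDM cultures, 1 per condition, was labelled in 1 colour and hybridized to Agilent arrays on 1 slide with 1 scan time. The authors deposited Agilent Feature Extraction 10.10.1.1 output, whose processed signal is a linear intensity after subtraction of a fitted background. A table of log2 values was deposited as well. Against the scanner values, each of its columns equalled the log2 processed signal less a constant for that array, within 0.01 for 99.9% of 52752 probes, and the column medians were −4.26 for CpG, −4.36 for IFN-γ + IL-10RB, and −4.26 for Triple. Its scale and direction were so settled, and genes were not centred. How the constants were chosen is not given in the sources used here.

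Control spots were dropped, as were outlier-marked spots (3.04% to 3.78%). Repeated spots of a probe were averaged as log2 values, and the 75th percentile of each array was subtracted, computed from the 21229 probes that were well above background on each array. The probe with the highest mean stood for its gene. A gene was called if the brighter array was well above background and the fold exceeded 2. A dim signal under the lowest well above background on its array was raised to it, which makes the fold a bound. No test between conditions was possible with 1 array each.

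The text names all 8 members with every probe, each gene of the pathway lists past 2-fold in at least 1 comparison, and the 3 genes closest in pattern to each member detected on all arrays. Spr, Qdpr, Gchfr, Pcbd1, Slc7a1, Nos3, and the marker genes with values were named after their values were seen. Some genes of the lists are not reported here and were left out of their counts. The members and lists were chosen with earlier results of these data known. Probe positions are those of the array annotation on mm9, and no exon annotation of that build was used. Promoters came from RefSeq, and protein sequences were not used here.

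The alternatives were the normexp background correction (limma 3.58.1 in R 4.3.3, offset 50), scaling by quantiles, by the median, by spike-in probes, by Actb, by a 75th percentile of all probes, or none, the authors' table, other choices of probe, RefSeq mRNA probes only, outlier spots kept, both arrays well above background, no filter, and thresholds of 1.5-fold and 3-fold. On simulated arrays of 33597 genes for Triple over IFN-γ + IL-10RB, 100% of bright genes changed 4-fold and 100% of those changed 8-fold were recovered, with 0 false calls. The noise added there was that of replicate spots only, without differences between cultures. The simulation thus checks the code and gives no rate of false calls for single arrays. The median error on the log2 scale was −0.043 for the genes changed 4-fold and −0.012 for those changed 8-fold. For unchanged genes it was 0.24, a value that includes dim genes whose signals were raised to the lowest detected signal of each array. It is thus no error of detected genes alone. Python 3.11.15, numpy 2.4.6, pandas 2.3.3, and scipy 1.17.1 were used.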

Additional observations from a re-analysis of the deposited data

How the results depend on the processing

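No paired analysis was possible because there was 1 array per condition. Of 20 member folds, 12 were past 2-fold, and 11 of these stayed past it under all 13 settings run for folds. The exception was Slc7a2 in CpG over IFN-γ + IL-10RB under normexp (−0.69). The 8 folds within 2-fold stayed within it, and 0 of the called folds changed sign. By more than the technical SD, 23 of 260 alternative values moved. Some settings could not move some values. Other choices of probe cannot change a member with 1 probe, and the lower limit cannot change a fold between arrays that were both well above background. The counts of values that stayed therefore overstate how far the folds were challenged. Ranges were 7.17 to 7.48 for Nos2, 3.57 to 4.67 for Slc7a2, and 1.03 to 1.40 for Gch1 in Triple over IFN-γ + IL-10RB, with the lowest Gch1 value from the mean of its probes. Normexp gave −1.17 for Nos2 in CpG over IFN-γ + IL-10RB, and 8.34 for Nos2 and 4.25 for Slc7a2 in Triple over CpG. A 3-fold threshold left 0 members higher (1 in the setting used here) and 0 lower (2) in CpG over IFN-γ + IL-10RB. Requiring both arrays well above background gave 2 members higher (4) in Triple over CpG and 1 lower (2) in CpG over IFN-γ + IL-10RB, as dim genes then left the count, and normexp also gave 1 lower. Of the pathway genes, without the filter 2 were higher (1) in Triple over IFN-γ + IL-10RB and 1 (0) in Triple over CpG, and normexp left 1 lower (2) in CpG over IFN-γ + IL-10RB. The other 106 of 114 alternative counts stayed within 1.5 times. Over all genes, omitting the filter gave 2522 higher and 3089 lower (1187 and 1682) in Triple over IFN-γ + IL-10RB, 2369 and 2502 (925 and 1068) in CpG over IFN-γ + IL-10RB, and 2767 and 3022 (1370 and 1529) in Triple over CpG. Normexp gave 1099 lower in the first of these, 554 higher and 708 lower in the second, and 916 lower in the third. The all-gene median for Triple over IFN-γ + IL-10RB was −0.18 under spike-in scaling, which used 4 of 10 spike-in probes, and 0.067 with the 75th percentile over all probes. Unless stated otherwise, the cause was not tested. Signal over background limits Arg1, Arg2, and Slc7a2 most.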

Other observations

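Transcription factors with known roles at Nos2 or Arg1 were read from a list of 7 names, of which 6 were measured. In CpG over IFN-γ + IL-10RB, 1 of 5 tested was called lower (Irf1), in Triple over CpG 2 of 5 were higher (Irf1 and Nfkb1), beside 5.85% and 7.48% of all genes, and in Triple over IFN-γ + IL-10RB 0 were called. Irf1, a factor induced by IFN-γ, had signals of 9196 with CpG, 132675 with IFN-γ + IL-10RB, and 123964 in Triple. It was high on the arrays with IFN-γ and nearly level between them, with a log2 fold of −0.067 for Triple over IFN-γ + IL-10RB. Nfkb1, which encodes the p50 subunit of NF-κB, had 1139, 1175, and 2265, close on the arrays with 1 kind of stimulus and higher in Triple, by 1.05 on the log2 scale over CpG and 0.98 over IFN-γ + IL-10RB. Cebpb, Stat6, and Epas1 stayed within 2-fold in all comparisons, and Hif1a was not well above background on any array. These are transcript levels and do not measure the activity of the factors, and the part of any factor in the values of the members was not tested.

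The Triple signal was also set against the sum of the other 2 arrays, a ratio added after the values were seen and calculated on the scaled linear signal. Over the 17045 genes well above background in Triple the median of this ratio was 0.493, and 5.71% of them exceeded the sum. Nos2 reached 123 times the sum, Slc7a2 at least 17.2 times, Arg2 at least 2.98 times, and Ass1 2.19 times, whereas Gch1 (0.779), Odc1 (0.640), and Asl (0.587) stayed under the sum. Of the 8 members, 4 thus exceeded the summed signal of the other arrays, and Arg1, which was not well above background in Triple, had no ratio. These bounds hold for the scanner software's background correction. With normexp the log2 of the ratio was 2.87 for Slc7a2 (4.10 in the setting used here) and 0.20 for Arg2 (1.58), and without the lower limit on dim signals Arg2 had 3.47. Without an unstimulated array the level before stimulation is part of both terms of the sum and could not be subtracted.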
